A study of Rattus norvegicus with 18 samples.

Results

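Scavenger and particle uptake receptors were described by their RNA levels in the lungs of rats given multi-walled carbon nanotubes (MWCNT). The genes were taken by name, and 8 of the 10 names asked for were read among 22081 genes: Cd68, Msr1, Marco, Clec7a, Olr1, Scarb1, Stab1 and Cd5l. Cd36 and Timd4 were not analysed here.

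Lung RNA was sequenced from 18 rats, from 6 groups of 3 rats each, a vehicle control group and a MWCNT group at each of 3 time points. All were male F344 rats, instilled through the trachea from 9 weeks of age and then every 4 weeks with saline containing 0.1% Tween 80, either alone (control) or with the straight, fibrous nanotube MWNT-7 at 0.5 mg/kg body weight (MWCNT). They were killed in week 26 (Year 0.5), week 52 (Year 1) or week 104 (Year 2) of the experiment, so age and the number of instillations rose together over time and cannot be told apart. The tissue came from the accessory lobe after visible tumour nodules had been left out, and each rat was a separate animal, so the values are means over all cell types of a lobe.

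Each library held between 13297643 and 21130757 counts (medians of 14721398 in control and 15804905 in MWCNT rats), and no pair of libraries held identical values. Markers of lung tissue were present in every rat. Levels are given as the deposited TPM, a share of all transcripts corrected for gene length, on which genes can be compared, as mean ± SD of 3 rats. Differences between groups are log2 fold changes of the counts from edgeR's quasi-likelihood test, with the standard error (SE) and the false discovery rate (FDR, the Benjamini-Hochberg adjusted p over all genes tested). A gene was called when its FDR was below 0.05 and its log2 fold change was beyond 1 in either direction, the criterion used by the study.

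Scavenger receptors are cell surface proteins that bind modified lipoproteins, microbes, dying cells and inhaled particles, often through charged ligands, and pass them to the lysosome. In the lung they are best known from alveolar macrophages, which clear particles that reach the air spaces. The class A receptors Msr1 and Marco carry collagen-like stalks, Olr1 and Clec7a are C-type lectin-like receptors encoded side by side, Scarb1 exchanges lipid with high-density lipoprotein, Stab1 clears matrix and lipoprotein debris, Cd68 resides mostly in the lysosomal membrane, and Cd5l is a secreted protein of the scavenger receptor cysteine-rich family made by tissue macrophages.

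In the coordinates of the deposited tables (Rnor_6.0), Cd68 (ENSRNOG00000037563) lay at chr10:56268720-56270640 on the minus strand, and Cd5l (ENSRNOG00000023068) at chr2:186685104-186696117 on the plus strand. Clec7a (ENSRNOG00000054251, chr4:163216163-163227334) and Olr1 (ENSRNOG00000056219, chr4:163239849-163261958) lay on the same strand with 12514 bases between them. Msr1 (ENSRNOG00000012779) and Stab1 (ENSRNOG00000018434) were both on chromosome 16, and Scarb1 (ENSRNOG00000000981) was on chromosome 12. The gene named Marco (ENSRNOG00000049303) was placed at chr16:85115201-85135859, whereas RefSeq's GRCr8 assembly has Marco on chromosome 13, so which locus its reads came from is uncertain.

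Promoters from 250 bases before to 50 bases after the start site were taken from RefSeq (GRCr8), where 6 of the 8 genes matched. They were read for the core letters bound by PU.1, the ETS factor of myeloid cells encoded by Spi1, a gene that was itself measured here. The letters GAGGAA, which read TTCCTC when taken from the other strand, were found in 5 of the 6 promoters (Cd68, Cd5l, Olr1, Stab1 and Marco) and in 27.5% of all 27457 promoters of that length. The Marco promoter is that of RefSeq's gene on chromosome 13, which may not be the locus whose reads were counted. The 4 promoters below are shown because they hold the gene with the highest level under MWCNT, the gene called higher over time in MWCNT rats, and the neighbouring lectin pair, of which Olr1 held the letters and Clec7a did not. Capitals mark them. The Cd68 promoter is chr10:54882392-54882691 (minus strand), that of Cd5l is chr2:175088665-175088964 (plus strand), that of Olr1 is chr4:164634498-164634797 (minus strand) and that of Clec7a is chr4:164599778-164600077 (minus strand).
Cd68: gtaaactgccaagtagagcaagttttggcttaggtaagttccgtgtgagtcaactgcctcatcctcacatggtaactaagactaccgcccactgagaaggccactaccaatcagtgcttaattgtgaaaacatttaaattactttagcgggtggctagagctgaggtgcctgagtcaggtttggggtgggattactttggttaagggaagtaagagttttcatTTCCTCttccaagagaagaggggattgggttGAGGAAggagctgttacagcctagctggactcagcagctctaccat
Cd5l: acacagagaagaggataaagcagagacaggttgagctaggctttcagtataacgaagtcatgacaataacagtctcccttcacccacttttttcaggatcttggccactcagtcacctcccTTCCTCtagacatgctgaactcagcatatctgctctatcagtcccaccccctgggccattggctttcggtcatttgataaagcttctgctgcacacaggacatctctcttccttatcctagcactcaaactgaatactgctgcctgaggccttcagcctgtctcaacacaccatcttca
Olr1: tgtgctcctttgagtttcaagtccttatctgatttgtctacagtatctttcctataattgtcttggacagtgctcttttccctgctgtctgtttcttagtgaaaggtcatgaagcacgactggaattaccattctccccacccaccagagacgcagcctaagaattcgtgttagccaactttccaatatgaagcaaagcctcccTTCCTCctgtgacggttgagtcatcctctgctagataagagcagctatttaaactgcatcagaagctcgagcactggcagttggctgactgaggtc
Clec7a: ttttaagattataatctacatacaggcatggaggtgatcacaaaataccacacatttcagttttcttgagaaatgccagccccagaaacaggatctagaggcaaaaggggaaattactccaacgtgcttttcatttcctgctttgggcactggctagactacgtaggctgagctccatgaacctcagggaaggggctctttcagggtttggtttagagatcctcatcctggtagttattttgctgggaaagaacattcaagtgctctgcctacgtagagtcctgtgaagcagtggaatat
The Cd68 promoter held the letters on both strands, with the first bases 27 bases before and 5 bases after the start site. In Olr1 they began 46 bases and in Cd5l 129 bases before it. The motif AGGTCA, bound by nuclear receptors, was found in Olr1 alone of the 6 and in 15.7% of all promoters. TTNNGCAA (C/EBP factors, in 10.5%) and TGACNNNGC (Maf and NRF2 factors, in 12.2%) were found in none of the 6. All were read on both strands. A match is a description of letters, not a measured binding site.

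**Figure D1:**
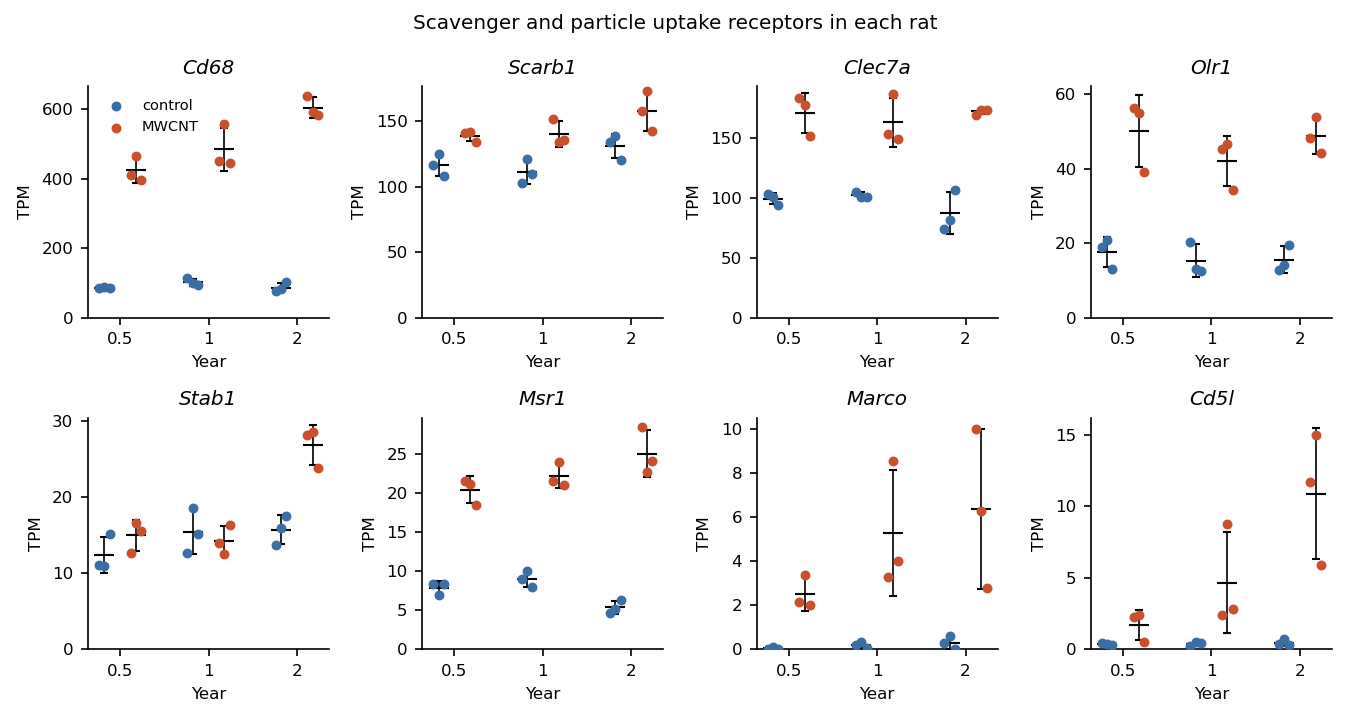
RNA level in TPM (vertical axes, linear from 0) by year for each of the 8 genes, with 1 point per rat in control (blue) and MWCNT (red) groups and bars for the mean ± SD of 3 rats. The Cd68, Msr1, Olr1, Clec7a and Marco points of the MWCNT rats lie above every control point, while Stab1 separates at Year 2 alone.

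At every time point most of these genes were higher in MWCNT rats, and none was called lower (against 3.03%, 4.09% and 8.22% of all genes tested). At Year 0.5, 4 of the 7 genes tested were called higher (Cd68, Msr1, Olr1 and Marco), against 6.07% of all genes. At Year 1 Cd5l, not tested at Year 0.5, was called too (5 of 8, against 6.13%), and at Year 2 Clec7a (6 of 8, against 8.17%). Marco and Cd5l passed the count filter through the MWCNT rats alone, so they could be tested only where the MWCNT rats were high. With at least 10 counts in every rat, which left both out, 3, 3 and 4 genes were called. Of all genes, 1064 of 13557, 1189 of 13530 and 1934 of 13418 were then called in either direction. By FDR alone, 7 of 7, 7 of 8 and 8 of 8 genes were higher, against 20.2%, 21.6% and 25.2% of all genes. Normalised CPM (counts scaled by library size and TMM factor) was higher in MWCNT rats without overlap for 7, 7 and 8 of the 8 genes. Of all genes tested, 27.1%, 28.5% and 30.1% were higher without overlap. The 7 at Year 0.5 include Cd5l, which was not tested then. The median log2 fold change of the genes tested was 1.53, 1.62 and 2.16 at the 3 time points, where the median over all genes was -0.02, 0.00 and -0.01. Marco is in each of these medians and Cd5l in those of Year 1 and Year 2, always with a larger value. Since both were tested only where the MWCNT rats were high, they raise the medians, and the set of genes differs between Year 0.5 and the later time points. In bulk tissue more cells of a type and more RNA per cell cannot be told apart. Macrophage markers moved with these genes: 9, 9 and 10 of the 12 in the list were called higher, none of the 12 was at 0 in any group, and their summed level was 25016 to 31282 TPM in control rats and 56188 to 65769 TPM in MWCNT rats. That sum was mostly lysozyme (Lyz2), and the other 11 markers, summed apart from it after the values had been seen, gave 903 to 1305 TPM in control and 1961 to 3213 TPM in MWCNT rats. Their part in the results was not tested.

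**Figure D2:**
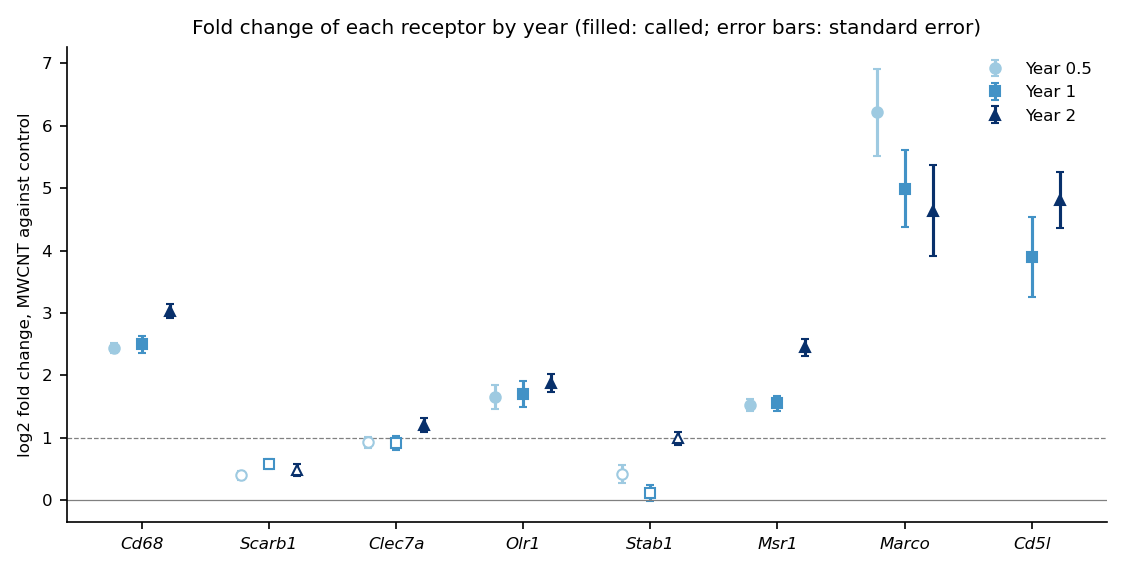
Log2 fold change of MWCNT against control rats (vertical axis) for each gene at the 3 time points, with 3 rats in each group, error bars for the SE and filled symbols for called genes. Marco and Cd5l stand highest but with the widest error bars, and Scarb1 stays below 1 at every time point.

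Cd68, the lysosomal glycoprotein used as a macrophage marker, had the highest level of the 8 genes in MWCNT rats. In control rats it stood at 84.4, 89.2 and 86.0 TPM at Year 0.5, 113, 98.3 and 93.3 TPM at Year 1, and 75.3, 81.4 and 101 TPM at Year 2. In MWCNT rats it stood at 410, 465 and 396 TPM, then 451, 556 and 444 TPM, then 638, 591 and 583 TPM. Every MWCNT rat was more than 3 times as high as the highest control rat, and in TPM the Year 2 rats lay above all earlier MWCNT rats. In normalised CPM the MWCNT rats of Year 2 and Year 1 overlapped, and their log2 difference of 0.34 (SE 0.12) did not pass (FDR 0.109). The fold difference was 5.41 at Year 0.5 (log2 2.44, SE 0.08, FDR 1.41e-06), 5.64 at Year 1 (log2 2.50, SE 0.14, FDR 4.92e-06) and 8.19 at Year 2 (log2 3.03, SE 0.11, FDR 2.63e-07). Within the MWCNT rats, Cd68 rose by 0.60 on the log2 scale from Year 0.5 to Year 2 (SE 0.12, FDR 0.00298), under the limit of 1. In control rats the same difference was -0.01 (SE 0.13, FDR 0.984). The change of the treatment effect itself between these time points was 0.60 (SE 0.17) and did not pass (FDR 0.0958).

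Msr1, the class A receptor for modified low-density lipoprotein, rose at every time point, to group means of 20.5, 22.3 and 25.1 TPM. Control rats held 8.37, 6.89 and 8.31 TPM at Year 0.5, 9.04, 9.98 and 7.96 TPM at Year 1, and 4.64, 5.13 and 6.30 TPM at Year 2. MWCNT rats held 21.7, 21.3 and 18.5 TPM, then 21.6, 24.0 and 21.1 TPM, then 28.5, 22.7 and 24.1 TPM. The 3 control rats of Year 2 lay below all earlier control rats, and all 9 MWCNT rats lay above every control rat. The fold difference was 2.88 at Year 0.5 (log2 1.53, SE 0.10, FDR 1.58e-05), 2.93 at Year 1 (log2 1.55, SE 0.12, FDR 2.11e-05) and 5.46 at Year 2 (log2 2.45, SE 0.13, FDR 1.70e-06).

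Msr1 was the single one of the 8 genes whose treatment effect was called different between time points. The effect was larger at Year 2 than at Year 0.5 by 0.93 on the log2 scale (SE 0.18, FDR 0.0209) and larger than at Year 1 by 0.91 (SE 0.18, FDR 0.0390), in edgeR's model of all 18 rats, where 1.31% and 0.478% of 14843 genes were called. In control rats Msr1 was lower at Year 2 than at Year 0.5 by a log2 difference of -0.55 (SE 0.14, FDR 0.0248) and than at Year 1 by -0.72 (SE 0.13, FDR 0.00807), while in MWCNT rats it was higher at Year 2 than at Year 0.5 by 0.38 (SE 0.12, FDR 0.0463). Between Year 2 and Year 1 the MWCNT rats overlapped and differed by 0.19 (SE 0.12), which did not pass (FDR 0.409). The call against Year 0.5 was lost without control rat 3 or MWCNT rat 3 of Year 0.5, or without control rat 1, control rat 2 or MWCNT rat 1 of Year 2 (FDR 0.0532 to 0.0801), and the difference then ranged from 0.81 to 0.89. The call against Year 1 was lost without control rat 2 or 3 or MWCNT rat 1 or 3 of Year 1, or without control or MWCNT rat 1 or 2 of Year 2 (FDR 0.0509 to 0.126, difference 0.79 to 1.00).

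Marco, the class A receptor with which alveolar macrophages bind unopsonised particles and bacteria, was almost unread in control lungs. Its raw counts in control rats were 0, 1 and 0 at Year 0.5, 2, 4 and 1 at Year 1, and 3, 7 and 0 at Year 2. In MWCNT rats they were 27, 59 and 26, then 43, 130 and 53, then 126, 90 and 37. No MWCNT rat had as few counts as any control rat. The level in TPM was 0.0302 ± 0.0523, 0.197 ± 0.134 and 0.280 ± 0.293 in control rats and 2.50 ± 0.756, 5.28 ± 2.85 and 6.36 ± 3.61 in MWCNT rats (n = 3 each). Even under MWCNT, then, Marco remained the lowest or next to lowest of the 8 genes.

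With so few control counts the size of the Marco difference was poorly fixed. The ratio of summed counts, scaled by library size and TMM factor, was 104 at Year 0.5 (112 counts against 1), with an exact 95% interval of 18.2 to 4132 that covers counting error only. It was 33.8 at Year 1 (16.1 to 85.0) and 25.3 at Year 2 (13.6 to 53.5), so the intervals of the 3 time points overlap. The fitted log2 fold changes were 6.22 (SE 0.70, FDR 0.000228), 4.99 (SE 0.62, FDR 0.000349) and 4.64 (SE 0.73, FDR 0.000721). Leaving out control rat 2 moved them to 8.17, 5.60 and 5.68, and leaving out MWCNT rat 2 of Year 1 moved the second to 4.38. Within MWCNT rats Marco differed between Year 2 and Year 0.5 by 1.42 (SE 0.52), which did not pass (FDR 0.0825), although without MWCNT rat 3 of Year 2, the lowest of its group, the difference was 1.78 (FDR 0.0344).

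Cd5l, the secreted inhibitor of macrophage apoptosis, had the largest difference of the 8 genes over time within MWCNT rats. Control rats held 0.43, 0.37 and 0.28 TPM at Year 0.5, 0.22, 0.48 and 0.40 TPM at Year 1, and 0.35, 0.68 and 0.30 TPM at Year 2. MWCNT rats held 2.23, 2.41 and 0.50 TPM, then 2.41, 8.73 and 2.83 TPM, then 11.71, 14.96 and 5.92 TPM. MWCNT rat 3 of Year 0.5 lay close to the control rats, and MWCNT rat 2 of Year 1 lay above MWCNT rat 3 of Year 2. The spread between MWCNT rats was therefore wide at every time point.

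At Year 0.5 Cd5l had too few counts to enter the comparison of 6 rats. Its ratio of summed counts was 5.50 (exact 95% interval 3.22 to 10.005, counting error only), and with no filter on low counts the log2 fold change was 2.40 (SE 0.61, FDR 0.0124). It was called at Year 1 (log2 3.90, SE 0.65, FDR 0.00166; count ratio 15.3, interval 9.38 to 26.7), where the log2 value was 2.98 without MWCNT rat 2, and at Year 2 (log2 4.81, SE 0.45, FDR 3.17e-05; count ratio 28.7, interval 18.2 to 48.0). Within MWCNT rats the rise from Year 0.5 to Year 2 was 2.72 on the log2 scale (SE 0.52, FDR 0.00253), and no other gene of the 8 was called there, where 1.44% of genes were called higher. By FDR alone 5 of the 8 were higher (Cd5l, Cd68, Msr1, Scarb1 and Stab1), against 6.65%. In control rats the difference was 0.31 (SE 0.87, FDR 0.868). The treatment effect of Year 2 exceeded that of Year 0.5 by 2.42 (SE 1.05), which did not pass (FDR 0.314).

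Clec7a, known as dectin-1 and the receptor for fungal beta-glucan, had a high level in control lungs and close to 1 log2 unit of difference at each time point. Control rats stood at 104, 101 and 94.2 TPM, then 105, 101 and 101 TPM, then 73.9, 81.4 and 107 TPM from Year 0.5 to Year 2. MWCNT rats stood at 184, 178 and 152 TPM, then 153, 187 and 149 TPM, then 170, 174 and 174 TPM. The lowest MWCNT rat was above the highest control rat at each time point, and the MWCNT groups overlapped each other. The log2 fold change was 0.93 (SE 0.09, FDR 8.36e-05), 0.91 (SE 0.12, FDR 0.000442) and 1.20 (SE 0.11, FDR 3.24e-05). The first passed the limit of 1 without MWCNT rat 3 (1.03), and the last fell just short of it with limma on log2(TPM + 1) (0.99), so these calls depend on the limit. The treatment effect of Year 2 exceeded that of Year 0.5 by 0.28 (SE 0.17), which did not pass (FDR 0.487).

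Olr1, the endothelial and macrophage receptor for oxidised low-density lipoprotein (LOX-1), was called at all 3 time points with a steady difference. Control rats held 19.0, 20.76 and 13.03 TPM, then 20.3, 13.1 and 12.6 TPM, then 12.7, 14.2 and 19.6 TPM. MWCNT rats held 56.3, 55.1 and 39.1 TPM, then 45.2, 46.6 and 34.2 TPM, then 48.2, 54.0 and 44.3 TPM. The control groups overlapped each other, as did the MWCNT groups, and the 2 treatments did not overlap. The log2 fold change was 1.66 (SE 0.19, FDR 0.000270), 1.70 (SE 0.21, FDR 0.000336) and 1.88 (SE 0.14, FDR 9.26e-06). Within MWCNT rats Olr1 differed by 0.04 between Year 2 and Year 0.5 (SE 0.21, FDR 0.922). Its neighbour Clec7a thus had a higher level in TPM in every rat and a smaller fold difference at each time point.

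Scarb1, the high-density lipoprotein receptor, had the highest mean level of the 8 genes in control lungs and the smallest difference that passed the FDR at every time point. Control rats held 116, 125 and 108 TPM, then 103, 121 and 110 TPM, then 134, 138 and 121 TPM. MWCNT rats held 141, 142 and 134 TPM, then 152, 134 and 135 TPM, then 158, 173 and 143 TPM. The treatments did not overlap within a year, but the control rats of Year 2 overlapped the MWCNT rats of the earlier time points. The log2 fold change was 0.40 (SE 0.07, FDR 0.00262), 0.57 (SE 0.08, FDR 0.000627) and 0.49 (SE 0.10, FDR 0.00257), or 1.32-, 1.49- and 1.40-fold. Its size depended on the scaling. At Year 0.5 it was 0.30 with library size scaling (FDR 0.00933) and 0.26 with limma on log2(TPM + 1) (FDR 0.0382). Within MWCNT rats Scarb1 rose by 0.27 from Year 0.5 to Year 2 (SE 0.08, FDR 0.0446).

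Stab1, a receptor of sinusoidal endothelium and of some tissue macrophages, differed in its timing. Control rats held 11.1, 10.9 and 15.1 TPM, then 12.7, 18.6 and 15.1 TPM, then 13.8, 15.9 and 17.5 TPM. MWCNT rats held 12.6, 16.7 and 15.6 TPM, then 13.9, 12.5 and 16.4 TPM, then 28.1, 28.6 and 23.8 TPM. The treatments overlapped at Year 0.5 and Year 1 and were apart at Year 2. The log2 fold change was 0.42 (SE 0.14, FDR 0.0454) at Year 0.5, 0.12 (SE 0.13, FDR 0.485) at Year 1 and 0.99 (SE 0.10, FDR 5.14e-05) at Year 2. The Year 0.5 value no longer passed the FDR with library size scaling (FDR 0.106), upper quartile scaling (0.0621) or limma (0.206 and 0.223), or without control rat 1 or 2 or MWCNT rat 2 or 3 (0.0892 to 0.155). The Year 1 value turned to -0.01 when counts were scaled by library size alone. The Year 2 value passed the limit of 1 without control rat 3 (1.06) or without MWCNT rat 3 (1.08).

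Within MWCNT rats Stab1 rose by 0.93 on the log2 scale from Year 0.5 to Year 2 (SE 0.14, FDR 0.000488) and by 0.94 from Year 1 to Year 2 (SE 0.14, FDR 0.00153), where it was the single one of the 8 genes past the FDR, against 2.68% of all genes that were higher. It was past the limit of 1 from Year 0.5 without MWCNT rat 2 of Year 0.5 (1.03) or MWCNT rat 3 of Year 2 (1.01), and from Year 1 without MWCNT rat 3 of Year 1 (1.03) or of Year 2 (1.02). The control rats differed by 0.35 and 0.05 over the same intervals (FDR 0.153 and 0.862). The treatment effect of Year 2 exceeded that of Year 1 by 0.88 (SE 0.21), just short of the threshold (FDR 0.0559), and that of Year 0.5 by 0.57 (SE 0.21, FDR 0.205).

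The remaining comparisons over time gave no call among the 8 genes. From Year 0.5 to Year 1 none was called by edgeR in MWCNT rats (3 had an unadjusted p below 0.05, and DESeq2 called 0), against 0.0472% of all genes, the largest of these differences being 1.51 for Cd5l (SE 0.52, FDR 0.396), whose CPM did not overlap, and 1.15 for Marco (SE 0.52, FDR 0.521). None was called in control rats (0 with an unadjusted p below 0.05, DESeq2 0), where Marco, with its few counts, differed by 2.38 (SE 1.58, FDR 0.830). From Year 1 to Year 2 none was called in MWCNT rats (4 with an unadjusted p below 0.05, DESeq2 0), where 0.903% of all genes were called. In control rats none was called between Year 2 and Year 0.5 (2 with an unadjusted p below 0.05, DESeq2 0, against 0.633% of all genes), where Marco differed by 2.97 (SE 1.48, FDR 0.231), or between Year 2 and Year 1 (2 with an unadjusted p below 0.05, DESeq2 0, against 0.499%). The treatment effect of Year 1 was called different from that of Year 0.5 for none of the 8 genes (0 with an unadjusted p below 0.05, DESeq2 0) and for 0% of all genes.

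Ordered by mean TPM over the 6 groups, Marco, Msr1, Cd68, Olr1 and Clec7a had all 3 control groups below all 3 MWCNT groups with a gap between them. For Cd5l the order was the same, but MWCNT rats of Year 0.5 overlapped control rats of Year 2. For Scarb1 every group overlapped its neighbour in the order. For Stab1 the MWCNT groups of Year 0.5 and Year 1 (14.9 ± 2.08 and 14.3 ± 1.93 TPM) lay among the control groups (12.4 ± 2.38, 15.5 ± 2.97 and 15.7 ± 1.90 TPM), and the MWCNT group of Year 2 (26.8 ± 2.66 TPM) stood alone.

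To show how the mix of these genes differed, each level was also given as a percentage of the Cd68 level in the same rat, as a description with no test. In the means of the control groups Clec7a and Scarb1 exceeded Cd68, at 115%, 102% and 101% and at 135%, 111% and 156% from Year 0.5 to Year 2. Control rat 1 of Year 1 was below Cd68 for both (93.5% and 91.2%). For Clec7a, control rats 1 and 2 of Year 2 were also below it (98.1% and 99.997%). In MWCNT rats Clec7a was 40.5%, 33.7% and 28.6% and Scarb1 33.0%, 29.4% and 26.2% of Cd68. Msr1 was 9.10%, 8.90% and 6.24% in control and 4.85%, 4.62% and 4.15% in MWCNT rats, so it too increased less than Cd68. Olr1 was 20.3%, 14.9% and 17.9% against 11.8%, 8.70% and 8.09%, and Stab1 14.3%, 15.5% and 18.4% against 3.53%, 3.01% and 4.44%. Marco went the other way at each time point, at 0.0339%, 0.193% and 0.353% in control and 0.585%, 1.06% and 1.04% in MWCNT rats, with ranges apart at Year 0.5 and Year 1. At Year 2 its lowest MWCNT value (0.478%) lay inside the control range of 0% to 0.718%. Cd5l was 0.413%, 0.371% and 0.528% in control and 0.397%, 0.913% and 1.79% in MWCNT rats, and at Year 2 its lowest MWCNT value (1.02%) lay above the highest control value (0.831%).

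**Figure D3:**
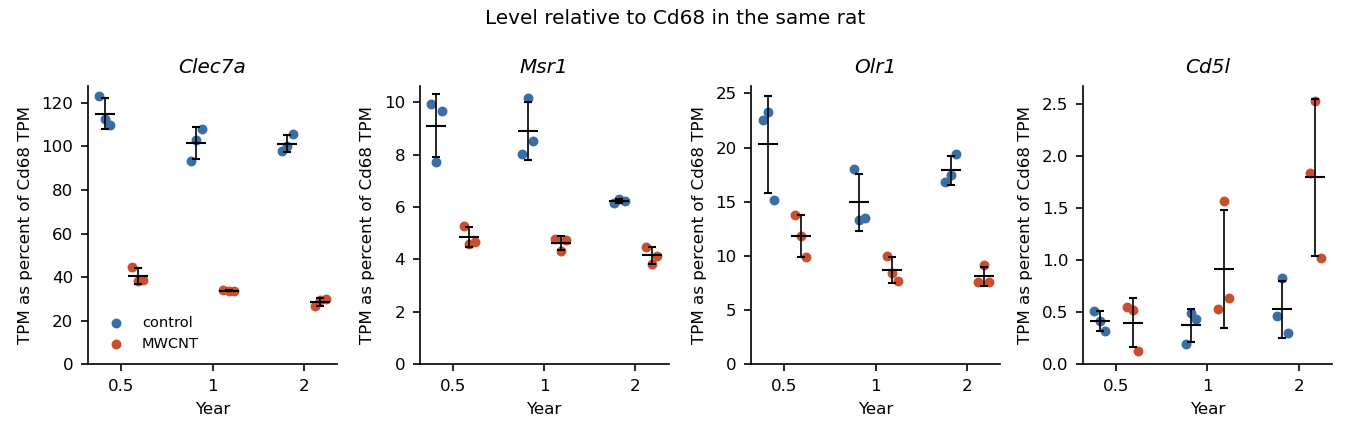
Level of Clec7a, Msr1, Olr1 and Cd5l as a percentage of the Cd68 TPM in the same rat (vertical axes, linear from 0) by year, with 1 point per rat and bars for the mean ± SD of 3 control (blue) or MWCNT (red) rats. At Year 2 Clec7a sits at 101% of the Cd68 level in control rats and at 28.6% of it in MWCNT rats, whereas Cd5l is higher relative to Cd68 in the MWCNT rats of Year 2.

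The likeness of patterns was described by Pearson's r of log2 CPM over the 18 rats, which share the treatment groups, among 13945 genes. Cd68 was most like Atp6v1b2 (r = 0.999), a subunit of the proton pump that acidifies lysosomes, then Gpnmb and Pld3 (both 0.997). Msr1 was most like Atp6v1a (0.993) and Atp6ap1 (0.992), which also belong to the proton pump. Clec7a was most like Rragc, Gpr137b and Ppt1 (each 0.987), Olr1 like Sowahc (0.980), Sirpa (0.978) and Rab32 (0.977), and Scarb1 like Csf1 (0.969), the macrophage growth factor. Marco was most like Tubb2b (0.979), Cd5l like Serping1 (0.973) and Stab1 like Fcer1a (0.913).

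With each group's mean subtracted, so that the treatment and the year no longer contribute, Cd68 and Clec7a still moved together from rat to rat (r = 0.85, 18 rats). Clec7a and Olr1 (0.75), Cd68 and Olr1 (0.72), Cd68 and Msr1 (0.69) and Clec7a and Msr1 (0.67) moved together as well. Marco went with Scarb1 (0.66) and Cd5l (0.65) and not with Cd68 (0.24) or Clec7a (-0.01), and Stab1 went with neither Cd68 (-0.02) nor Cd5l (0.01). On this measure the genes most like Cd68 were Atp6v1e1 (0.961) and Atp6v1b2 (0.935), further proton pump subunits. Those most like Marco were Apol9a (0.953), Pml (0.920) and Oas2 (0.900), but its deviations in control rats rest on 0 to 7 counts. Each is among the 3 highest of 13945 genes, where high values can be met without any shared regulation, and none was tested.

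Other genes of these pathways were counted from lists. Of 13 other scavenger receptors tested, 1 was called higher at Year 0.5, 0 at Year 1 and 2 at Year 2, and 1 was called lower at Year 1, against 6.07%, 6.13% and 8.17% of all genes called higher and 4.09% lower at Year 1. Their median log2 fold change at Year 2 was 0.45, and the 2 called were Mrc1, the mannose receptor of alveolar macrophages (1.73, SE 0.16, FDR 3.07e-05), and Scara5, a ferritin receptor (1.27, SE 0.17, FDR 0.000232). Mrc1 stood at 118 ± 7.73 TPM in MWCNT rats and 41.4 ± 10.2 TPM in control rats at that time. Of 15 genes for the uptake of apoptotic cells, 1, 1 and 4 were called higher at the 3 time points, with a median of 0.13 at Year 2. The numbers called lower were 0, 1 and 1, against 3.03%, 4.09% and 8.22% of all genes. The receptor kinase Mertk (1.62, FDR 4.70e-06) and the integrin Itgav (1.39, FDR 7.75e-06) were higher and the engulfment adaptor Gulp1 was lower (-1.25, FDR 0.000657).

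Genes that act beside Clec7a and Scarb1 formed the next lists. Their counts are to be read against 6.07%, 6.13% and 8.17% of all genes called higher at the 3 time points. The shares called lower were 3.03%, 4.09% and 8.22%. Of 11 genes of Clec7a signalling and related C-type lectins, 6, 5 and 7 were called higher and none lower, with a median of 1.19 at Year 2, among them Clec4a3 (2.16, FDR 7.46e-07) and Clec4e, the receptor Mincle (1.96, FDR 4.17e-06). Of 12 lipid partners of Cd36 and Scarb1, 7, 6 and 9 were called higher and none lower, with a median of 1.74. The fatty acid carrier Fabp4 stood at 678 ± 33.6 TPM in MWCNT and 21.9 ± 6.32 TPM in control rats at Year 2 (log2 5.18, SE 0.15, FDR 1.56e-07), and the lipoprotein Apoe at 5368 ± 606 and 1110 ± 222 TPM (log2 2.49, SE 0.17, FDR 6.07e-06). Of 11 transcription factors known to act on these receptors, 2, 2 and 4 were called higher, with a median of 0.79. They included Spi1 (1.26, FDR 2.08e-06), which encodes PU.1 and stood at 149 ± 4.43 TPM in MWCNT and 72.0 ± 3.34 TPM in control rats at Year 2.

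**Figure D4:**
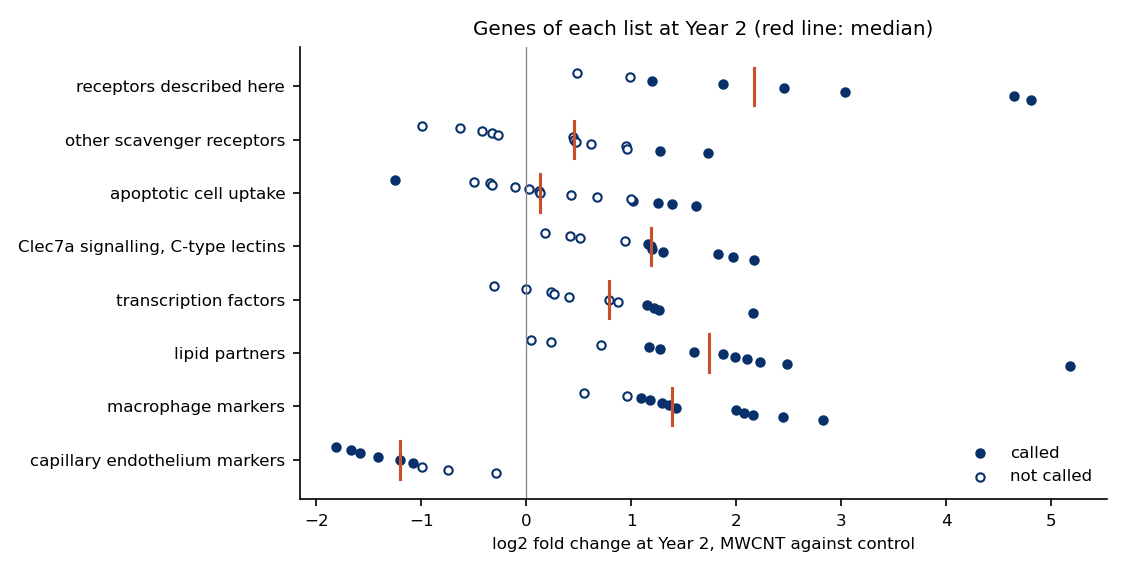
Log2 fold change of MWCNT against control rats at Year 2 (horizontal axis, 3 rats in each group) for each gene of 8 lists, filled where called, with a red line at each list's median. The receptors described here have a median of 2.16, the lipid partners 1.74 and the macrophage markers 1.39, while the capillary endothelium markers lie below 0. The receptors' median is raised by Marco (4.64) and Cd5l (4.81), which passed the count filter through the MWCNT rats alone. The medians therefore do not rank the lists.

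Markers of other cell types were counted in the same way, since each of these genes can be read from several cell types. The counts are to be read against the 6.07%, 6.13% and 8.17% of all genes called higher and the 3.03%, 4.09% and 8.22% called lower at the 3 time points. Of 8 alveolar macrophage markers tested, 6, 5 and 7 were called higher at the 3 time points, with a summed level of 477 to 589 TPM in control and 1417 to 2194 TPM in MWCNT rats, although their marker Ear1 was at 0 in every rat of 4 groups. Of 9 capillary endothelium markers, 4, 1 and 6 were called lower, with a summed level of 2541 to 3266 TPM in control and 809 to 1757 TPM in MWCNT rats. Of 7 alveolar type 2 cell markers, 2, 2 and 3 were called higher. Neutrophil markers gave 1, 2 and 2 of 6 higher, and monocyte markers 1 of 5 higher at each time point and 1 lower at Year 0.5. B cell markers gave 3 of 5, 0 of 4 and 2 of 4 lower, heart muscle markers 7 of 8, 2 of 8 and 1 of 6 lower, adipocyte markers 1 of 3, 1 of 2 and 0 of 2 lower, and the lung tissue markers 0, 0 and 1 of 4 higher. The part of these cell types in the levels of the 8 genes was not tested.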

How the data were processed

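Per the study's methods the authors used CLC Genomics Workbench for mapping and deposited, for every rat, the total count of reads per gene and the TPM made from it. The submitters' processing notes name Rnor_6.0 and rn6, and how multi-mapping reads were treated is not given in the sources used here. The deposited counts, whole numbers that were not normalized, entered every test, and the deposited TPM values gave the levels. The other deposited columns (RPKM, TMM-adjusted CPM and the authors' own fold changes, p-values and FDRs) were not used.

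Genes were taken by name, and the genes and lists were chosen with earlier results of these data known. All 10 names asked for were to be described, and of each other pathway list up to 2 called genes that were most raised and up to 2 that were most lowered at Year 2, of which 1 is not reported here. Each year's 6 rats were fitted with edgeR 4.0.16 (R 4.3.3) by glmQLFit and glmQLFTest after filterByExpr (minimum count 10, minimum total 15) and TMM scaling. Time differences and the change of the treatment effect came from 1 model of all 18 rats with a mean per group, and the change was called by FDR below 0.05 alone. DESeq2 1.42.0 and limma 3.58.1 (log2 of TPM plus 1 or plus 0.1) served as alternatives, with other scalings, filters, thresholds, each rat left out in turn and a replicate block. Intervals of count ratios are exact at 95%. The fitting steps were tested on simulated data.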

Additional observations from a re-analysis of the deposited data

Results flagged for a closer look

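The treatment effect on Msr1 differed between time points by the test of the difference itself, in edgeR's quasi-likelihood model of all 18 rats. On the log2 scale it was larger at Year 2 than at Year 0.5 by 0.93 (FDR 0.0209) and larger than at Year 1 by 0.91 (FDR 0.0390). In control rats Msr1 was lower at Year 2 than at both earlier time points, and in MWCNT rats it was higher at Year 2 than at Year 0.5, while the MWCNT rats of Year 2 and Year 1 overlapped. Neither difference passed with the replicate number as a block, and each was lost when any one of several single rats was left out.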

How the results depend on the processing

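The single-gene differences between treatments, and the others that passed the FDR, were each set against every alternative that applied. Of these pairs of a difference and an alternative, 514 kept the direction and side of the threshold, 14 newly passed it, 17 no longer passed it and 3 reversed. The alternatives included calls by FDR alone, which a gene held back only by the fold change limit passes by definition. The reversals were all Stab1 at Year 1 (0.12), which was -0.015 with library size scaling and, with limma, -0.10 at a pseudocount of 1 TPM and -0.11 at 0.1 TPM. Library size scaling shifted the median of all genes by -0.10, -0.13 and -0.17 at the 3 time points, and the share of calls that were higher from 66.7%, 60.0% and 49.9% to 54.2%, 45.2% and 37.5%.

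Of the counts of the 8 genes called, that at Year 0.5 (4) was 7 by FDR alone and 4 to 6 with a rat left out, being 6 without MWCNT rat 3, where Clec7a and Cd5l were called. That at Year 1 (5) was 3 with at least 10 counts in every rat, a filter that Marco and Cd5l could not pass, and 5 with any rat left out. That at Year 2 (6) was 4 with that filter, 5 with limma at either pseudocount, 8 by FDR alone and 6 to 7 with a rat left out. For MWCNT rats, Year 2 against Year 0.5 (1), it was 0 with at least 10 counts in every rat and 1 to 3 with a rat left out (3 without MWCNT rat 3 of Year 2, 2 without MWCNT rat 2 of Year 0.5). For Year 2 against Year 1 (0) it was 0 to 1 with a rat left out (1 without MWCNT rat 2 or 3 of Year 1 or rat 3 of Year 2). The change of the treatment effect from Year 0.5 to Year 2 (1) gave 2 with DESeq2 (Msr1 and Cd68) and 0 to 2 with a rat left out. That from Year 1 to Year 2 (1) gave 2 with DESeq2 (Msr1 and Stab1), 2 with at least 10 counts in every rat and 0 to 3 with a rat left out (3 without control rat 3 of Year 2). Apart from the filter, the cause was not tested.

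Same-numbered rats did not deviate together (mean r 0.02, range -0.15 to 0.10 over 9 pairs, against -0.01 over 18 pairs of different numbers), so no pairing by replicate number was seen. With 3 rats a group this does not exclude one. With the replicate number as a block, the counts were 4, 5 and 6 at the 3 time points, 2 for MWCNT rats from Year 0.5 to Year 2, 1 from Year 1 to Year 2, and 0 for both changes of the treatment effect (Msr1 0.92, FDR 0.0548, and 0.91, FDR 0.0981).

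Marco and Cd5l are limited by depth, since their control groups summed to 1 to 19 counts. For Marco the locus its reads came from is uncertain as well. With 3 rats a group, a difference that did not pass is not shown to be absent.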
